A study of Mus musculus with 11 samples.

Results

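Co-inhibitory receptors of dendritic epidermal T cells (DETCs) were examined in mice that lack Langerhans cells (LCs). The 9 genes Pdcd1, Ctla4, Lag3, Havcr2, Tigit, Cd96, Cd160, Btla and Cd200r1 were chosen by name as receptors that restrain T cells, and all 9 were found by their identifiers among the 52550 genes listed, 14419 of which were tested. The huLangerin-DTA mice (LC-/-) carry diphtheria toxin subunit A under the human langerin promoter and lack LCs from birth, so their cells came from skin that had developed without LCs and no acute loss was sampled. Their wild type (WT) littermates of the same age served as controls, and all mice were female by their labels. From epidermal suspensions, KCs (keratinocytes, CD45 negative) and DETCs (CD45 positive cells negative for MHC-II, langerin and c-kit) were sorted, and their poly-A RNA was sequenced in 11 libraries. WT mice gave 3 KC and 3 DETC libraries (W1 to W3), and LC-/- mice gave 3 KC libraries (L1 to L3) and 2 DETC libraries (L2 and L3), named in the order of the numbers in their labels.

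DETCs are γ/δ T cells that reside in mouse epidermis and touch both KCs and LCs. Co-inhibitory receptors are induced or kept on activated and tissue-resident T cells, bind ligands on neighboring cells and recruit phosphatases or compete with co-stimulatory receptors for ligand. PD-1 (Pdcd1) and CTLA-4 (Ctla4) restrain signaling through the antigen receptor and CD28, LAG-3 binds MHC class II, TIM-3 (Havcr2) binds galectin-9 and other ligands, and TIGIT and CD96 share the ligand CD155 (Pvr) with the activating receptor CD226.

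Values are normalized counts, which are reads per gene divided by a size factor of the library, and a level compared between genes is given per kilobase (kb) of exon. The libraries held 13491075 to 19750440 reads on genes, with medians of 16874365 in WT DETCs and 14340318 in WT KCs, and the LC-/- DETC libraries held 18782840 (L2) and 16641959 (L3). A value of 0 allows up to 3 reads in a library, which covers counting error only. Cd207, which encodes langerin, checked the genotype labels. It had 6, 29 and 18 reads in WT KC libraries and 0 in each LC-/- KC library, and 20, 20 and 48 reads in WT DETC libraries against 0 and 4 in LC-/- ones. The 12 DETC markers summed to 226007 (W1), 228287 (W2), 236726 (W3), 217608 (L2) and 218664 (L3) normalized counts in DETC libraries and to 344 to 667 in KC libraries. In the KC libraries most of that sum was Thy1, and the median KC value of the 12 markers was 0.00312% to 0.0216% of the DETC value with the same number.

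The 9 receptors differed widely in level within WT DETCs. Cd96 was highest at 3049 ± 93.2 normalized counts per kb (SD, n = 3), followed by Havcr2 at 1112 ± 178 and Tigit at 1084 ± 160. Lag3 (576 ± 157) and Ctla4 (383 ± 69.4) were intermediate in counts per kb. Cd160 (212 ± 50.0), Pdcd1 (190 ± 52.1), Btla (57.7 ± 0.456) and Cd200r1 (17.4 ± 6.42) were lower on the same scale. The order of Havcr2 and Tigit and that of Cd160 and Pdcd1 changed from one WT library to another. Lag3 was above Ctla4 in each WT library, but their ranges overlapped. The other 5 pairs of neighbors in this order had separate ranges. In both LC-/- DETC libraries Havcr2 was the highest of the 9, at 2977 (L2) and 2845 (L3) counts per kb, and Cd96 was second at 2465 and 2658. Havcr2 made up 13.8%, 19.0% and 17.1% of the summed level per kb of the 9 receptors in W1, W2 and W3, and 42.7% and 35.8% in L2 and L3. The sum itself was 6550.5, 6348 and 7148 in WT libraries and 6965 and 7956 in LC-/- libraries.

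**Figure D1:**
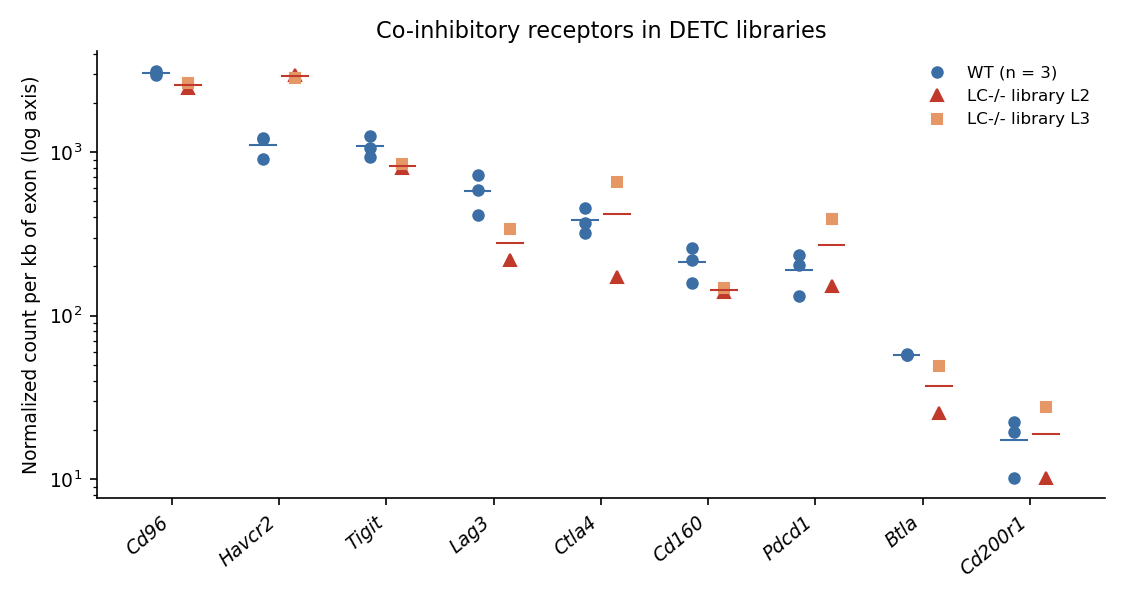
Normalized counts per kb of exon (log axis) of the 9 receptors in each DETC library, ordered by the WT mean, with WT libraries as circles, LC-/- libraries L2 and L3 as a triangle and a square, and group means as lines. Havcr2 lies at 2977 and 2845 in the LC-/- libraries and at 907 to 1221 in the WT libraries.

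KC libraries held few or no reads of these genes. Pdcd1, Tigit, Btla and Cd200r1 had 0 reads in all 6 KC libraries, and Cd160 had 2 reads in L3 and 0 elsewhere. Havcr2 had 7 reads over the 6 libraries, Ctla4 10 and Cd96 25. Lag3 was the exception with 154 reads, and its KC value was 2.34% to 4.0% of the DETC value with the same number. Its nearest gene, Ptms, ends 1976 bases away and held 3886 to 4959 normalized counts in KCs. Whether reads of that gene contribute to the Lag3 value was not tested. WT DETCs held at least 354-fold more Tigit, 199-fold more Cd160, 130-fold more Pdcd1, 69.6-fold more Btla and 20.7-fold more Cd200r1 than WT KCs, against a floor of 3 reads in each KC library. With few reads in KCs, the ratio was 2530 for Havcr2 (95% counting interval 989 to 9300), 1610 for Cd96 (940 to 3020), 900.0 for Ctla4 (308 to 4370) and 38.9 for Lag3 (31.9 to 47.9). All 9 receptors were called higher in WT DETCs than in WT KCs (adjusted p at most 5.01e-07, limma), as were 41.0% of all tested genes. Since 8 of the 9 passed the filter on low counts through DETC libraries alone, that count carries no weight. Only Lag3 passed it in KC libraries too.

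Havcr2 encodes TIM-3, a receptor of activated T cells. Its normalized counts in DETCs were 2467 (W1), 3284 (W2) and 3324 (W3) in WT mice and 8099 (L2) and 7741 (L3) in LC-/- mice. Both LC-/- libraries were higher than every WT library, and the gap between the groups was larger than the spread within either. The log2 fold change was 1.40 ± 0.14 (SE), a 2.64-fold higher level (95% interval 2.12 to 3.29), with an adjusted p of 0.00832 (limma). Among the 9 receptors, 1 was called higher, Havcr2, beside 3.13% of all tested genes, and 0 were called lower, beside 0.43%. At an unadjusted p under 0.05, 1 receptor was higher and 5 were lower, beside 13.1% and 6.19% of all tested genes. Called receptors numbered 1 with edgeR, beside 3.35% of all tested genes in either direction, and 3 with DESeq2, which added Cd96 and Lag3, beside 7.48%. The call of Havcr2 held without any 1 WT library (adjusted p 0.0181 to 0.0422, limma). It was lost without the filter (0.113), without the trend in the variance (0.179) and in a fit over all 11 libraries (0.108). With 1 LC-/- library left, the log2 fold change was 1.37 without L2 and 1.43 without L3. In bulk libraries, more cells with the transcript and more transcript in each cell cannot be told apart.

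**Figure D2:**
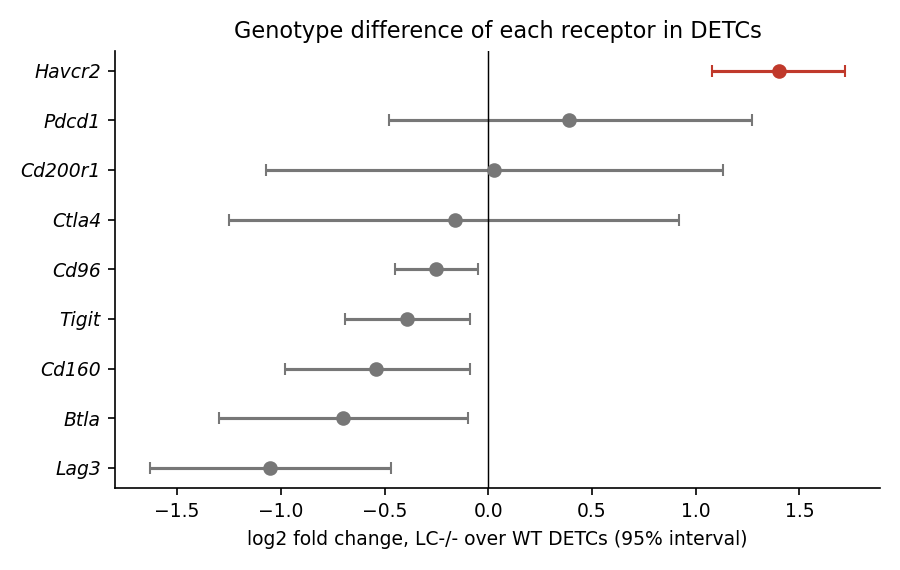
Log2 fold change of each receptor between LC-/- and WT DETCs with its 95% interval from limma, with Havcr2, the only receptor with an adjusted p under 0.05 there, in red. The interval of Havcr2 runs from 1.08 to 1.72.

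Lag3, whose product binds MHC class II, had 1535, 875 and 1237 normalized counts in W1, W2 and W3 and 462 and 710 in L2 and L3. Both LC-/- libraries lay below every WT library. Its log2 fold change was -1.05 ± 0.25 (SE) with a 95% interval of -1.63 to -0.47, and the adjusted p of 0.0654 (limma) missed the threshold. It was 0.000768 with DESeq2, within a range of 0.000768 to 0.375 over 15 alternatives. With 1 LC-/- library left, the log2 fold change was -1.36 without L3 and -0.74 without L2. In KCs, Lag3 had 35, 28 and 37 reads in W1, W2 and W3 and 14, 13 and 27 in L1, L2 and L3. Its normalized counts overlapped there, at 26.0 in W2 and 28.4 in L3 (log2 fold change -0.75, adjusted p = 0.209, limma).

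Cd96 and Tigit encode receptors of nectin-family ligands. Cd96 had 6695, 6441 and 6843 normalized counts in WT DETCs and 5383 and 5806 in LC-/- DETCs. Tigit had 972, 862 and 1154 in WT DETCs and 739 and 774 in LC-/- DETCs. In both genes the LC-/- values lay below all WT values, by a small margin. Their log2 fold changes were -0.25 ± 0.09 and -0.39 ± 0.13 (SE), with adjusted p of 0.167 and 0.155 (limma). Cd96 was called lower with DESeq2 (0.0433) and after quantile normalization (0.0397), and its adjusted p over 15 alternatives reached 0.895.

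Cd160 and Btla encode receptors of HVEM. Normalized counts of Cd160 were 682, 420 and 580 in WT DETCs and 368 and 390 in LC-/- DETCs. For Btla they were 194, 197 and 196 in WT DETCs and 86.4 and 167 in LC-/- DETCs. The groups did not overlap for either gene, and the LC-/- libraries of Btla lay further apart than its WT libraries. The log2 fold changes were -0.54 ± 0.19 for Cd160 and -0.70 ± 0.26 for Btla (SE), with adjusted p of 0.178 and 0.192 (limma). With 1 LC-/- library left, the log2 fold change of Btla was -1.17 without L3 and -0.23 without L2. Its adjusted p was 0.152 with DESeq2 and 0.537 in limma without the filter. Exons of Cd160 overlap those of Pdzk1, and without a stated strand of counting their reads cannot be told apart. Pdzk1 had 80.7 to 194 normalized counts in DETCs.

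Lag3, Cd96, Tigit, Cd160 and Btla were thus the 5 receptors with both LC-/- libraries below every WT library, a pattern that 16.5% of all tested genes shared. Havcr2 was the 1 receptor with both above, beside 21.3% of all tested genes. The median log2 fold change of the 9 receptors in DETCs was -0.25, against 0.02 over all tested genes.

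Pdcd1, Ctla4 and Cd200r1 overlapped between the groups, and in each of them L3 was the highest DETC library. Pdcd1 had 255, 451 and 395 normalized counts in W1, W2 and W3, 294 in L2 and 749 in L3. Ctla4 had 751, 859 and 1069 in the WT libraries, 403 in L2 and 1541 in L3. Cd200r1, the receptor of CD200, had 75.3, 65.2 and 34.0 in the WT libraries, 34.0 in L2 and 92.9 in L3. The L3 value was 2.54 times the L2 value for Pdcd1, 3.83 times for Ctla4 and 2.73 times for Cd200r1, whereas the median ratio of the larger to the smaller of these libraries was 1.14 over 13725 tested genes with a mean of at least 10. The log2 fold changes between genotypes were 0.39 (95% interval -0.48 to 1.27), -0.16 (-1.25 to 0.92) and 0.03 (-1.07 to 1.13), with adjusted p of 0.626, 0.89 and 0.983 (limma). These intervals include changes of more than 1.5 times in either direction for Ctla4 and Cd200r1. The sign rested on single libraries, since the log2 fold change of Ctla4 was 0.80 without L2 and -1.13 without L3. Each of these fits leaves 1 LC-/- library. Without L3, the log2 fold change of Pdcd1 was -0.28 and that of Cd200r1 was -0.68.

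Of 7 markers of α/β T cells and Tregs, 6 were higher in L3 than in L2, beside 47.0% of all tested genes. This order was not particular to them, since 8 of the 9 receptors had it too. It was also that of 11 of 12 co-stimulatory receptors, 14 of 16 transcription factors and 6 of 7 LC markers. Of the DETC markers 7 of 12 had it, of the ligands 7 of 16 and of the keratinocyte markers 0 of 10. The L3 value was 7.48 times the L2 value for Cd8a, 1.25 times for Trbc2 and 0.958 times for Trbc1. The 7 markers summed to 9798, 11751 and 10674 normalized counts in W1, W2 and W3, 7563 in L2 and 13946 in L3, with Trbc1 most abundant in W1 and L2, Trac in the other 3, and none at 0 in any of the 5. Cd8a, a co-receptor of α/β T cells, had 786, 2092 and 1716 normalized counts in WT DETC libraries, 378 in L2 and 2825 in L3. Cd4 had 524, 755 and 441, then 232 and 630. Foxp3, the factor of Tregs, had 189, 124 and 239, then 148 and 274. L2 was lowest and L3 highest of the 5 DETC libraries for Cd8a, Cd8b1 and Trac, but not for Cd4, Trbc1, Trbc2 or Foxp3. Ctla4 had that same order of extremes, as did 3.7% of all tested genes, and Cd200r1 was highest in L3 and level between L2 and W3 at 35 reads each. This order was chosen for description after the values were seen. The part of these cells in the receptor values was not tested.

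**Figure D3:**
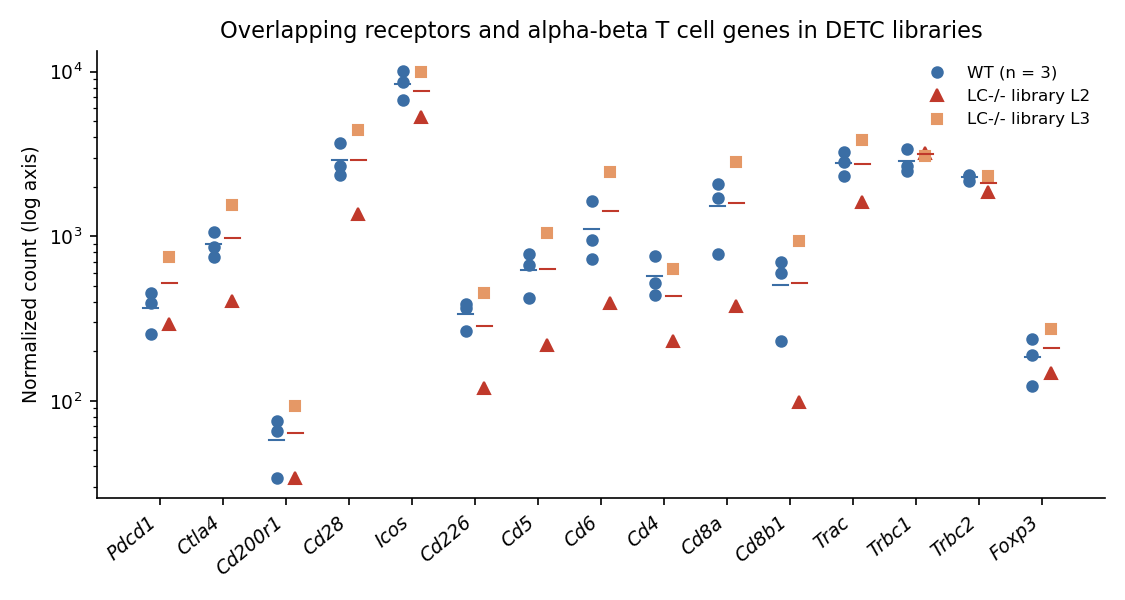
Normalized counts (log axis) in each DETC library of the 3 receptors whose groups overlap, of co-stimulatory and other inhibitory receptors and of α/β T cell and Treg markers, with symbols as in the plot of counts per kb. L3 lies above L2 for 14 of the 15 genes shown, all but Trbc1, and for 47.0% of all tested genes. The receptors shown are a choice, and over their whole lists L3 was above L2 for 11 of 12 tested co-stimulatory and 12 of 14 other inhibitory receptors.

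Other marker lists were at the following levels in DETC libraries. The 9 dermal γ/δ T17 markers reported here summed to 6402, 8524 and 7626 in WT libraries and 5909.0 and 5136 in L2 and L3, with Cd163l1 most abundant in each library. For 8 of these, all but Cd163l1, L2 and L3 were both lower than every WT library, beside 16.5% of all tested genes. Among all tested genes, limma called 0.43% lower, and 6.19% were lower at an unadjusted p under 0.05. In either direction, edgeR called 3.35% of all tested genes and DESeq2 7.48%. The median log2 fold change of the 9 was -0.96. Called lower were 2 by limma and edgeR, Ccr6 (log2 fold change -1.30, called in 0 of 5 fits without 1 library) and 5830411N06Rik (-0.99), and 6 by DESeq2, with 8 at an unadjusted p under 0.05 in limma. The sum of the 10 keratinocyte markers was highest in L2, at 131467 normalized counts against 79559 to 95726 in the other DETC libraries, although Krt1 and Krt10 were highest in W2, with Krt10 most abundant in L2 and W2, Krt5 in the other 3, and none at 0 in any of the 5. Their median log2 fold change was 0.29. Of the 10 keratinocyte markers, Dsg3 (0.73) and Col17a1 were higher in L2 and L3 than in every WT library, a pattern that 21.3% of all tested genes shared. Dsg3 was called higher by DESeq2 (adjusted p = 0.0236) but not by limma (0.146) or edgeR (0.138). The median DETC value of these markers was 26.1% of the KC value in L2 and 15.2% to 17.3% in the others. Of 7 mast cell markers, 6 were at 0 in all DETC libraries, and the sum of 294 to 573 was Kit. The 6 macrophage markers summed to 4.86 to 40.9, with Lyz2 most abundant in W1, W3 and L3, level with Adgre1 in W2 and at 0 in L2, and with C1qb at 0 in all 5. The 5 NK cell markers summed to 3850, 2438 and 2721 in WT libraries and 2338 and 2512 in L2 and L3, with Klrd1 most abundant and Klra4 at 0 in L2, and Klrb1c was called lower by limma and DESeq2 but not by edgeR (log2 fold change -1.18). Klra8, with 12.4 to 28.4 normalized counts in WT libraries and 32.0 and 37.6 in L2 and L3, lay the other way, and the median log2 fold change of the 4 tested NK cell markers was 0.18. Of 7 tested LC markers 4 were called lower by limma and edgeR and 2 by DESeq2, and their list of 8 summed to 1568 to 1868 in WT libraries and 1121 and 1175 in LC-/- libraries, with Mfge8 most abundant, and with Cd207 and Csf1r at 0 in L2. Among the DETC markers, the γ/δ antigen receptor genes Trdv4 (log2 fold change -1.04), Tcrg-V5 (-0.59), Trdc (-0.52) and Tcrg-C1 (-0.48) were lower in L2 and L3 than in every WT library. Cd3d and Cd3g were lower in that way too, beside 16.5% of all tested genes. Il2rb (0.46) and Klrk1 were higher than in every WT library, beside 21.3%. Trdv4 was called by limma, edgeR and DESeq2, and Tcrg-V5, Trdc, Tcrg-C1 and Il2rb by DESeq2 alone. Cd3d, Cd3g and Klrk1 were called by none of these tools. The sum of the 12 markers thus covers changes in opposite directions. The part of any of these cells in the receptor values was not tested.

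None of the 9 receptors was called in KCs by limma (0 at an unadjusted p under 0.05) or edgeR (1 at an unadjusted p under 0.05, Lag3), and DESeq2 gave an adjusted p there to 0 of the 9. The limma calls in KCs covered 5.37% (higher) and 1.85% (lower) of the genes tested. Since 8 of the 9 passed the filter on low counts through DETC libraries alone, the count in KCs carries no weight for those 8. Pdcd1, Tigit, Btla and Cd200r1 had 0 reads in every KC library, so no change could be called for them there. The difference between the genotype effects in DETCs and in KCs was called for 0 of the 9 by limma and edgeR and for 0 of the 7 to which DESeq2 gave an adjusted p (not Btla or Cd200r1), with 1, Havcr2, at an unadjusted p under 0.05 and higher in limma, as were 7.3% of all tested genes. At the adjusted threshold limma called 0.798% of them in either direction. For receptors with 0 reads in every KC library, the difference only repeats the change in DETCs, so these counts carry no weight for them. For Havcr2 the difference was 1.51 ± 0.64 (SE) on the log2 scale with an adjusted p of 0.40 (limma), and it was called with a pseudocount of 8 (0.0104). KC values of Havcr2 rested on at most 2 reads per library.

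Ligands of the receptors were read in KCs, which adjoin DETCs. Pvr, the poliovirus receptor bound by TIGIT and CD96, had 590, 621 and 678 normalized counts in WT KCs and 1157, 1046 and 1219 in LC-/- KCs. All LC-/- KC libraries lay above all WT ones, and the log2 fold change was 0.86 ± 0.08 (SE; adjusted p = 0.0193, limma). The call was lost in most of the 6 fits without 1 library. Nectin2, which TIGIT binds, had 2163, 2065 and 2247 in WT KCs and 2640, 2845 and 3039 in LC-/- KCs. Its groups were separate too, with a log2 fold change of 0.39 ± 0.06 (SE; adjusted p = 0.0345, limma), but the call was lost in all 6 fits without 1 library (0.0655 to 0.115). The share of all tested genes with separate groups in KCs was not computed, so separation there carries no weight for either gene. Pvr was also higher in LC-/- DETC libraries, at 847 and 825 against 492, 540.5 and 488 normalized counts (log2 fold change 0.72, adjusted p = 0.0161, limma). That call too was lost in some fits without 1 library. In the DETC libraries Pvr reached 67.7% to 87.1% of the KC value with the same number, whereas Nectin2 reached 12.3% to 22.6% and the median keratinocyte marker 15.2% to 26.1%.

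MHC class II genes, whose products LAG-3 binds, were low in both populations. H2-Aa had 53.3, 54.7 and 33.7 normalized counts in WT KCs and 6.61, 7.13 and 14.7 in LC-/- KCs, and it was called lower (log2 fold change -2.25, adjusted p = 0.0336, limma) but in 0 of 6 fits without 1 library (0.0639 to 0.115). H2-Eb1 had 56.4, 97.4 and 44.1 in WT KCs and 20.9, 26.5 and 41.0 in LC-/- KCs (-1.11), and was called lower by edgeR (adjusted p = 0.032) and DESeq2 (0.0102) but not by limma (0.149). In DETC libraries H2-Aa (-3.03), H2-Eb1 (-2.93) and H2-Ab1 (-2.54) were called lower by limma and edgeR, and H2-Eb1 also by DESeq2, which gave the other 2 no adjusted p. These 3 genes are also LC markers. Lgals3, which encodes galectin-3, had 5964, 6756 and 6414 normalized counts in WT DETCs and 10594 and 9560 in LC-/- DETCs (log2 fold change 0.66, adjusted p = 0.0201, limma). Both LC-/- libraries lay above every WT library, as for 21.3% of all tested genes. Of the 16 ligand genes tested, limma called 2 higher and 3 lower in DETCs, beside 3.13% and 0.43% of all tested genes. In KCs it called 2 higher and 1 lower, beside 5.37% and 1.85%. The median log2 fold changes of the 16 were -0.10 in DETCs and 0.07 in KCs, against 0.02 and -0.01 over all tested genes.

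The remaining ligands were not called in KCs by limma. Nectin1, a ligand of CD96 in mice, had 6305, 5502 and 6038 normalized counts in WT KCs and 7213, 7936 and 6900.4 in LC-/- KCs. All LC-/- libraries lay above all WT ones, but the share of all tested genes with that pattern in KCs was not computed. Nectin1 was called higher by edgeR (adjusted p = 0.0296) and DESeq2 (0.00684), and in limma its log2 fold change was 0.30 ± 0.08 (SE; adjusted p = 0.0813). Cd274 (PD-L1) had 240 to 271 normalized counts in WT KCs and 286, 271 and 533 in L1, L2 and L3. Lgals9, which encodes galectin-9, had 258 to 372 in WT KCs and 275 to 350 in LC-/- KCs. Cd200 had 500.1 to 602.5 and 434 to 525.5. Values of Cd274, Lgals9 and Cd200 overlapped between the genotypes or, for Cd274, were separated by a margin smaller than the spread among LC-/- libraries. Tnfrsf14, which encodes HVEM, held 7.17 to 19.9 normalized counts in KCs. Cd80, Cd86 and Pdcd1lg2 had at most 6.30 in any KC library.

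Of 12 co-stimulatory receptors tested in DETCs, 0 were called by limma (at an unadjusted p under 0.05, 2 were higher and 1 was lower) or edgeR and 1 by DESeq2, Cd2, with a median log2 fold change of 0.03. The limma shares over all tested genes were 3.13% called higher and 0.43% called lower, and 13.1% and 6.19% at the unadjusted threshold. In either direction, edgeR called 3.35% of all tested genes and DESeq2 7.48%. Cd28, which competes with CTLA-4 for CD80 and CD86, had 2366, 3704 and 2685 normalized counts in WT DETCs, 1371 in L2 and 4434 in L3. Cd226, the activating partner of TIGIT and CD96, had 265, 385 and 365, then 119 and 454. Both genes were lowest in L2 and highest in L3, as Ctla4 was. Ctla4 lies 62095 bases from Icos on chromosome 1 and 113641 bases from Cd28, and Icos had 6753, 10091 and 8605 in WT DETCs, 5279 in L2 and 9941 in L3. In KCs, limma called 1 of the 12 higher, Cd28, beside 5.37% of all tested genes. Cd28 had 2, 1 and 1 reads there in WT libraries and 5, 4 and 5 in LC-/- libraries. It was not called by edgeR (adjusted p = 0.12) or in any of the 6 fits without 1 library, and DESeq2 gave it no adjusted p.

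Of 14 other inhibitory receptors and ectoenzymes tested in DETCs, 0 were called by limma (at an unadjusted p under 0.05, 2 were higher and 3 were lower) or edgeR and 1 by DESeq2, Cd244a, with a median log2 fold change of -0.14. Among all tested genes, 3.13% were called higher and 0.43% lower by limma, and 13.1% and 6.19% passed the unadjusted threshold. The shares called in either direction were 3.35% with edgeR and 7.48% with DESeq2. Vsir, which encodes VISTA, had 391.5, 373 and 366 normalized counts in WT KCs and 279.8, 310.5 and 281 in LC-/- KCs, and it was the 1 gene of the list called there (log2 fold change -0.38, adjusted p = 0.0363, limma). Of all tested genes, 1.85% were called lower in KCs. The call of Vsir was lost in most fits without 1 library. Of the paralogs of Cd200r1, which in part share its sequence, Cd200r4 had 14.6 to 21.8 normalized counts in DETCs, Cd200r2 at most 1.95 and Cd200r3 0. Whether reads were split between Cd200r1 and Cd200r4 was not tested.

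Phosphatases and adaptors act below the receptors. Ptpn6, which encodes the phosphatase SHP-1, had 5477, 4710.4 and 4845 normalized counts in WT DETCs and 2995 and 2855 in LC-/- DETCs. The groups were far apart, with a log2 fold change of -0.77 ± 0.10 (SE; adjusted p = 0.0136, limma). In KCs it had 291, 290.3 and 270 in WT libraries and 189.5, 225 and 191 in LC-/- libraries (log2 fold change -0.49, adjusted p = 0.042, limma). Ptpn11, which encodes SHP-2, had 5652, 4984 and 5836 in WT DETCs and 4446 and 4278 in LC-/- DETCs, and was called lower there by DESeq2 (adjusted p = 0.0174) but not by edgeR (0.0802) or limma (-0.33, adjusted p = 0.115). It was called higher in KCs (0.35, adjusted p = 0.0193, limma). Ubash3b, a phosphatase that acts on T cell kinases, was called higher in KCs (0.80, adjusted p = 0.0245, limma) and not in DETCs (-0.09, adjusted p = 0.698, limma). Of 17 signaling genes tested in DETCs, limma and edgeR called 0 higher and 1 lower, Ptpn6, and DESeq2 called 0 higher and 2 lower, Ptpn6 and Ptpn11 (at an unadjusted p under 0.05 in limma, 0 were higher and 3 lower). For all tested genes the limma shares were 3.13% higher and 0.43% lower (13.1% and 6.19% unadjusted). The shares called in either direction were 3.35% with edgeR and 7.48% with DESeq2. The median log2 fold change of the 17 was -0.07.

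Of 16 transcription factors known to act on receptor genes, limma called 2 higher and 0 lower in DETCs (3 and 0 at an unadjusted p under 0.05), and edgeR and DESeq2 each called 3 higher and 0 lower. Over all tested genes, limma called 3.13% higher and 0.43% lower (13.1% and 6.19% at an unadjusted p under 0.05). In either direction, edgeR called 3.35% of all tested genes and DESeq2 7.48%. The median log2 fold change of the 16 was 0.12. Nr4a3, a factor induced by antigen receptor signals, had 47829, 60083 and 62018 normalized counts in WT DETCs and 113575 and 140919 in LC-/- DETCs (log2 fold change 1.17, adjusted p = 0.024, limma). Its call was lost in most fits without 1 library. Foxo1, a factor of T cell quiescence and homing, had 4971, 5668 and 5766 in WT DETCs and 13465 and 10616 in LC-/- DETCs (1.13, adjusted p = 0.0105, limma). Nr4a2, which edgeR and DESeq2 added, had 35279, 35937 and 38391 in WT DETCs and 51812 and 61122 in LC-/- DETCs (0.62, adjusted p = 0.0537, limma). For these 3 genes the LC-/- libraries lay above all WT libraries, as for 21.3% of all tested genes. Since the 3 were named for calls in the same libraries, this separation adds no support. In KCs, Prdm1 was called higher (0.83, adjusted p = 0.0169, limma) and Maf lower (-0.40, adjusted p = 0.0292, limma), the latter in 0 of 6 fits without 1 library (0.0502 to 0.0993), and edgeR and DESeq2 also called Nr4a2 higher (0.54, adjusted p = 0.0657, limma).

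Positions and promoters of the receptors were read from GRCm38. Tigit, Cd200r1, Btla and Cd96 all lie on chromosome 16, within 2.47 Mb between bases 43648867 and 46120251. RefSeq promoters were matched for 7 of the 9 genes (8 promoters, build GRCm38.p6), and the 250 bases before each start were searched on both strands. The letters sought were AAAGGTCA for NR4A factors, GTAAACA for FOXO factors, TGANTCA for AP-1, GGAAAA for NFAT and TGTGGT for RUNX. The NR4A letters were in 0 of the 8 windows and in 1.34% of 32817 promoters, and the FOXO letters in 0 and 3.16%. AP-1 letters were in 1 window and 6.75% of promoters, NFAT letters in 2 and 20.4%, and RUNX letters in 6 and 14.0%. The Havcr2 promoter, of the 1 receptor called in DETCs, is shown for chr11:46454681-46454930 on the plus strand, with the AP-1 and RUNX letters in capitals. A match describes the sequence and is not a bound site.
Havcr2: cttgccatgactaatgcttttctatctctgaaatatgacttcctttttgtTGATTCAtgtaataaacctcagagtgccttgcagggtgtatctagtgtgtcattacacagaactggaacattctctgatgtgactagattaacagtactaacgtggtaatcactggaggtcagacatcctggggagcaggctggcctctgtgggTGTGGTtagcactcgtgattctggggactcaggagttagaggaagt

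Genes most like each receptor over the 11 libraries were named for description, and since the libraries fall into DETCs and KCs, r was between 0.9935 and 0.9999 for all 27 genes named. By Pearson r on log2 values, those nearest Havcr2 were Rab11fip4 (0.9987), Vwa7 (0.9984) and Hpse (0.9982). Those nearest Lag3 were Wrnip1 (0.9943), Slc25a12 (0.9942) and Tmem184c (0.9935). Those nearest Ctla4 were Gsdmd (0.9951), Cep135 (0.9948) and Tbc1d22b (0.9948). Those nearest the others were Pacsin1, Gpr174 and Cd40lg for Pdcd1, Qprt, Olfm3 and Clnk for Tigit, and Tnfsf12, Gm2237 and Ttc7b for Cd96. For Cd160 they were Klhl6, Cysltr2 and C920009B18Rik, for Btla Tcrg-V6, Kcna2 and Il9r, and for Cd200r1 Trbj2-1, Slfn1 and a gene without a symbol.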

How the data were processed

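Poly-A RNA of sorted KCs and DETCs was sequenced in 11 libraries, grouped by the genotype and population in their labels. The authors aligned reads to GRCm38, counted them per gene and scaled each library by its DESeq2 size factor, and the deposited values are this normalized count signal. The strand setting of the counting is not given in the sources used here. Reads were recovered by dividing each value by the smallest step of its library. Of the values, 100.0% came out whole within 0.01 reads (largest deviation 0.00081). On these reads, edgeR called 483 genes in DETCs and 1783 in KCs, and DESeq2 1079 and 1752. Symbols, positions and exon lengths came from GENCODE release M21 for 52403 of 52550 identifiers.

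Values were analysed as log2(normalized count + 1), so that fold changes of low genes are understated. Genes with a CPM above 1 in at least 2 of the 11 libraries were tested (14419). Genotypes were compared within each population, WT DETCs with WT KCs, and the genotype effects of the populations through an interaction term, in limma 3.58.1 under R 4.3.3 (moderated variances with a mean trend, Benjamini-Hochberg adjustment over all tested genes, threshold 0.05), and limma was tested on simulated data. The 2 genotype comparisons and the interaction share libraries, and so do the WT comparison and the others. edgeR 4.0.16 and DESeq2 1.42.0 were alternatives, as were pseudocounts of 0.5 and 8, no filter, a minimum mean of 10, TMM and quantile normalization, no trend, 1 fit over all 11 libraries, a replicate block and omission of each library.

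Genes named were the 9 receptors, direct ligands in KCs, called members of the lists of ligands, co-stimulatory and other inhibitory receptors, signaling genes and transcription factors (at most 8 per list and comparison), and the 3 tested genes with a mean of at least 10 most like each receptor. Members and lists were chosen with earlier results of these data known. Each label holds a number, and 5 of the 6 numbers occur in both populations. A figure legend of the study calls each point of its plot of these data an animal of its own. Whether KC and DETC libraries with the same number share an animal is not stated. Promoters came from RefSeq. Of the dermal γ/δ T17 marker list, 1 gene is not reported here.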

Additional observations from a re-analysis of the deposited data

Results flagged for a closer look

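The genotype effect differed between DETCs and KCs for 5 genes named here, by the interaction term in limma without pairing of libraries. None of the 9 receptors was called, and 8 of them passed the filter on low counts through DETC libraries alone. With 1 library left out in turn, Foxo1 was called in 11 of 11 fits, Ptpn11 in 8, Ubash3b in 7, Nr4a3 in 3 and Cd3g in 2. With the label number as a replicate block, the call of Foxo1 held (adjusted p = 0.0266, limma). Those of Ubash3b (0.0536), Cd3g (0.0538), Ptpn11 (0.0955) and Nr4a3 (0.105) were lost. Without the block, Foxo1 had a difference of 1.18 on the log2 scale (adjusted p = 0.00324), from 1.13 in DETCs and -0.05 in KCs. Nr4a3 had a difference of 1.0 (adjusted p = 0.0319), from 1.17 in DETCs and 0.16 in KCs. For the phosphatase genes the difference was in the other direction, at -0.68 for Ptpn11 (adjusted p = 0.0146) and -0.89 for Ubash3b (adjusted p = 0.0201), which were called higher in KCs. Cd3g, a subunit of the antigen receptor complex, had a difference of -2.01 (adjusted p = 0.0308), and its KC values rested on 1 read in each WT library and 9, 6 and 3 reads in L1, L2 and L3.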

How the results depend on the processing

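All 9 receptors were called higher in WT DETCs than in WT KCs under each of the 17 alternatives, and none was called in KCs under the 14 alternatives that tested all 9 there. Since 8 of the 9 passed the filter on low counts through DETC libraries alone, neither result carries weight for those 8. With a minimum mean of 10 only Lag3 was tested in KCs, and was not called, and DESeq2 gave an adjusted p to none of the 9. In DETCs, the number of receptors called higher was 0 rather than 1 without the filter, without the trend and in 1 fit over all 11 libraries, where Havcr2 kept its log2 fold change at an adjusted p of 0.113, 0.179 and 0.108 (limma). The number called lower was 1 with quantile normalization (Cd96), 2 with DESeq2 (Cd96 and Lag3), and 0 to 3 with 1 library left out, the 3 being Btla, Ctla4 and Lag3 without L3. Leaving out L2 or L3 leaves 1 LC-/- DETC library, which is then assumed to vary like the others. The difference between populations was called for 1 receptor, Havcr2, with a pseudocount of 8. The cause of these changes was not tested.

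Signs changed for receptors that were not called. In DETCs, the log2 fold change of Ctla4 was 0.08 with edgeR and 0.10 with DESeq2, that of Cd200r1 was -0.01 with TMM, and with 1 library left out Ctla4 ranged from -1.13 to 0.80, Pdcd1 from -0.28 to 1.07 and Cd200r1 from -0.68 to 0.74. In KCs, Cd96 was at 0.05 with edgeR and 0.02 with DESeq2, and with 1 library left out Cd96 ranged from -0.83 to 0.70, Ctla4 from -0.35 to 1.09 and Havcr2 from -0.60 to 0.33, each resting on few reads. For the difference between populations, Cd96 was at 0.17 with a pseudocount of 0.5, Cd200r1 at -0.01 with TMM and -0.05 with DESeq2, and with 1 library left out Pdcd1 ranged from -0.28 to 1.07, Ctla4 from -1.57 to 0.36, Lag3 from -0.60 to 0.02, Cd96 from -0.96 to 0.58 and Cd200r1 from -0.68 to 0.74.

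Over all genes, limma called 452 higher and 62 lower in DETCs. Higher calls were 137 without the filter, 178 with quantile normalization, 868 with DESeq2, 0 without the trend and 834 in the fit over all 11 libraries, and lower calls 211 with DESeq2, 0 without the trend and 125 in the fit over all 11. With 1 library left out they were 29 to 478 higher and 0 to 112 lower. In KCs, 775 were higher and 267 lower. Higher calls there were 252 without the filter, 1165 with a minimum mean of 10, 419 with quantile normalization, 1192 with edgeR, 1215 with DESeq2 and 508 without the trend, and lower calls 88, 575, 591 and 537 without the filter, with the minimum mean, edgeR and DESeq2. With 1 library left out they were 5 to 552 higher and 0 to 169 lower. For the difference between populations, 89 were higher and 26 lower. Higher calls were 236 with DESeq2 and 19 without the trend, and lower calls 17 without the filter, 48 with quantile normalization, 76 with DESeq2 and 3 without the trend. With 1 library left out they were 25 to 117 higher and 3 to 29 lower.

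With the label number as a replicate block, the difference between populations was called for 17 genes higher and 1 lower, and for Havcr2 it was 1.07 (adjusted p = 0.438, limma). Of the 5 other named genes called without the block, Foxo1 was called with it (0.0266), and Ubash3b (0.0536), Cd3g (0.0538), Ptpn11 (0.0955) and Nr4a3 (0.105) were not. WT DETCs against WT KCs gave 5858 higher and 5015 lower. Over 12321 genes, deviations from the group means of libraries with the same number had r of -0.0789 (W1), 0.1102 (W2), 0.1606 (W3), 0.2061 (L2) and 0.1723 (L3), and W1 did not correlate best with its own number. The 2 LC-/- DETC libraries deviate from their mean by opposite amounts, so the values of L2 and L3 are not independent. Neither the labels nor these values settle whether a number marks the same animal in both populations. The main fits did not pair libraries by number, whereas percentages of a DETC or KC value compare libraries with the same number. Quantile normalization moved the median log2 difference of all genes between WT DETCs and WT KCs from 0.07 to -0.24.

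Of the other named genes, Foxo1 was called in DETCs in 5 of 5 fits with 1 library left out (adjusted p 0.00996 to 0.0479, limma). Its call was lost without the filter (0.115) and without the trend (0.179), as were the limma calls in DETCs of all other genes named here. The calls of the others were also lost in some or all of the fits with 1 library left out. In DETCs, H2-Eb1 was called in 4 (0.0117 to 0.056), H2-Aa in 3 (0.00996 to 0.0656), Ptpn6 in 3 (0.0253 to 0.0685), Pvr, Lgals3 and 5830411N06Rik in 2 (up to 0.0819, 0.117 and 0.113), Nr4a3 (0.0261 to 0.107), H2-Ab1 (0.0117 to 0.136), Trdv4 (0.0442 to 0.0918) and Klrb1c (0.0493 to 0.176) in 1, and Ccr6 in 0 (0.0592 to 0.0818). In KCs, Pvr (0.0359 to 0.0806), Ptpn11 (0.0406 to 0.0806), Ubash3b (0.033 to 0.0924) and Prdm1 (0.033 to 0.0806) were called in 2 of 6 fits, Vsir (0.0413 to 0.121) and Ptpn6 (0.0411 to 0.139) in 1, and H2-Aa (0.0639 to 0.115), Nectin2 (0.0655 to 0.115), Cd28 (0.0513 to 0.113) and Maf (0.0502 to 0.0993) in 0. Without the filter, the calls of H2-Aa, Nectin2, Cd28, Vsir, Ubash3b, Ptpn6 and Maf in KCs were lost. Quantile normalization ended those of H2-Ab1 and Klrb1c in DETCs and of Nectin2 and Ptpn6 in KCs, the fit over all 11 libraries those of Trdv4 and Klrb1c in DETCs and of Nectin2 in KCs, and a pseudocount of 8 that of Klrb1c. The difference between populations lost its call without the trend for Ptpn11, Ubash3b, Nr4a3 and Cd3g, and with a pseudocount of 8 for Cd3g.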
